A study of Mus musculus with 6 samples.

Results

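The genes described here are 10 genes that mark endothelial cells, the lining of blood vessels: Pecam1, Cdh5, Kdr, Flt1, Tek, Cldn5, Emcn, Vwf, Eng and Sox17. They were found by symbol among the 27179 genes of a count table from mouse skin, and all 10 were matched. In skin given bleomycin, Vwf and Pecam1 lay above control skin while Kdr, Tek and Cldn5 lay below it. The 1 library with EHP-101 as well was within counting error of bleomycin alone for 9 of the 10 genes and 60.2% of all genes. Skin that also received ajulemic acid lay below bleomycin for most of them on average, by an amount that differed between its libraries. None of the differences between bleomycin and control passed edgeR's test.

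Skin of female BALB/c mice aged 6 to 8 weeks was sequenced as total RNA in 6 libraries. The groups were control (1 library), bleomycin (1 library), bleomycin with EHP-101 (1 library) and bleomycin with ajulemic acid (3 libraries, numbered 1 to 3 as in the labels). Both treated groups therefore carry bleomycin as well, an agent that damages DNA and is used in mice to model the skin fibrosis of scleroderma. EHP-101 is an oral formulation of a cannabidiol aminoquinone, and ajulemic acid is a synthetic cannabinoid. Doses, routes and times are not given in the labels, and neither is whether the libraries came from separate animals, so a spread between libraries may be technical. The 10 genes were chosen by a reading of these same values, the levels with EHP-101 and with ajulemic acid relative to bleomycin, and the question put to them was whether EHP-101 and ajulemic acid lie on opposite sides of bleomycin. Those comparisons are therefore given as values with no test, and so are those of a treatment with control or with the other treatment, which use the same libraries. The comparison of bleomycin with control was not part of that choice and carries a test. It shares the bleomycin library with the comparisons that were, so its values are not independent of the choice.

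Endothelial cells are held together by adherens and tight junctions, for which VE-cadherin (Cdh5), the immunoglobulin-family adhesion molecule PECAM-1 (Pecam1) and claudin-5 (Cldn5) are characteristic. Their growth and survival depend on receptors for VEGF (Kdr, also called VEGFR2, and Flt1, VEGFR1), for angiopoietins (Tek, also called TIE2) and for BMP9 and BMP10 with the co-receptor endoglin (Eng). In skin these cells line the capillary loops under the epidermis, the vessels of the follicles and of the fat layer, and the larger vessels of the dermis, and vessel damage and loss of capillaries are known features of scleroderma. RNA from whole skin cannot tell fewer endothelial cells from less RNA of these genes per cell.

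The libraries held 14291592 to 19837682 counts, and the 10 genes together had between 3611 and 5086 counts per library. Levels are given as CPM, counts relative to the library's total, with totals scaled by edgeR's TMM factors. Genes of the mitochondrial chromosome took 27.6% of counts in control and 27.4% in ajulemic acid library 2, against 17.95 to 20.8% in the other 4 libraries. Without these genes the median log2 fold change of the 10 in bleomycin against control was 0.33, beside 0.34 with them. Keratinocyte markers were abundant in every library, with Krt10 between 1494 and 3613 CPM. Other tissue components differed widely. The summed level of 9 hair follicle markers was 11704 CPM in control skin, 1037 with bleomycin alone, 10324 with EHP-101, and 10876, 508 and 25619 in ajulemic acid libraries 1, 2 and 3, so ajulemic acid library 3 was the highest and library 2 the lowest. The sum of 10 skeletal muscle markers was 9239.5 CPM in control skin, 25164 with bleomycin alone, 25266 with EHP-101, and 17097, 24027 and 10490.3 in ajulemic acid libraries 1, 2 and 3. The sum of 13 hepatocyte markers was 1098 CPM in control skin, 780.3 with bleomycin alone, 705 with EHP-101, and 66.8, 131 and 21.9 in ajulemic acid libraries 1, 2 and 3. All 3 ajulemic acid libraries were thus far below the others in liver transcripts, which include albumin (Alb) at 678, 477, 455, 5.59, 12.6 and 1.75 CPM in the order above. What part these components have in the values below was not tested.

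On opposite sides of bleomycin, with EHP-101 above it and all 3 ajulemic acid libraries below it, lay 4 of the 10 genes: Pecam1, Cdh5, Tek and Vwf. Over all 17377 genes tested, 4.00% had that pattern. With the mean of the ajulemic acid libraries in place of each library there were 6 genes, Kdr and Sox17 being added, against 10.2% of all genes. No gene had the reverse pattern, which 3.41% of all genes had. These counts describe the genes for which the question was chosen, and nothing is read from them. The count of 4 became 8 without ajulemic acid library 2, in which Kdr, Cldn5 and Sox17 were above their bleomycin level, since the scaling without it also put EHP-101 above bleomycin for Cldn5 and Emcn. With that library out, the pattern asks for fewer libraries below bleomycin. The scaling also moved the all-gene median of EHP-101 against bleomycin to 0.03. The share of all genes with the pattern is not given for that setting, so nothing is read from the change.

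The upper side of that pattern was narrow. EHP-101 lay above bleomycin for 8 of the 10 genes (50.0% of all genes did), with a median log2 fold change of 0.10, beside 0.00 over all genes. An interval for the ratio of the 2 libraries from counting error alone included 1 for 9 genes and for 60.2% of all genes, a description of 2 libraries from which nothing is read about the treatment. The exception was Flt1, at a ratio of 1.35 (95% counting interval 1.16 to 1.59). For Pecam1 the ratio was 1.07 (95% counting interval 0.99 to 1.16), for Vwf 1.04 (95% counting interval 0.95 to 1.13) and for Cldn5 0.988 (95% counting interval 0.747 to 1.31). Cldn5 and Emcn were below bleomycin by less than 2% and moved above it when libraries were scaled by total counts only or when ajulemic acid library 2 was left out of the scaling. With 1 library on each side, differences of this size have no replicate check here. Further columns named for control, bleomycin and EHP-101 come from another series and were not used.

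The lower side rested on more distance and on unequal libraries. The mean of the ajulemic acid libraries was below bleomycin for 8 genes, and the fitted log2 fold change was negative for 8 (47.2% of all genes), with a median of -0.32 beside 0.02 over all genes. All 3 libraries were below bleomycin for 5 genes (24.6% of all genes): Pecam1, Cdh5, Tek, Emcn and Vwf. Ajulemic acid library 3 was the lowest of its group for all 10 genes (36.2% of all genes) and below bleomycin for all 10 (49.8%), at a median ratio of 0.588. Library 1 was below bleomycin for 8 genes (50.1%), at a median ratio of 0.803, and library 2 for 6 (50.4%), at 0.957. The median log2 fold change of the group was -0.10 without library 3, -0.49 without library 2 and -0.34 without library 1. Library 3 also had the highest sum of hair follicle markers and the lowest sums of adipocyte and muscle markers in its group, and the part of these in its low endothelial levels was not tested.

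**Figure D1:**
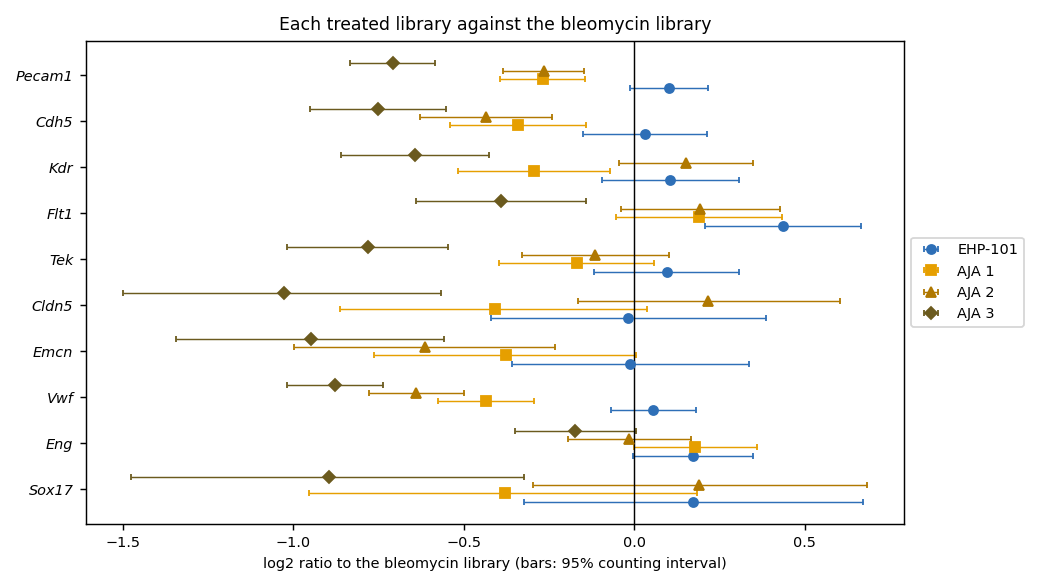
Log2 ratio of each treated library to the bleomycin library (horizontal axis) for the 10 endothelial genes (rows), with bars for the 95% interval from counting error only; circles are EHP-101, and squares, triangles and diamonds are ajulemic acid libraries 1, 2 and 3. The EHP-101 intervals include 0 for every gene but Flt1, and the diamonds of library 3 lie leftmost in each row.

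The junction and adhesion genes come first. PECAM-1, the platelet endothelial cell adhesion molecule (Pecam1, gene 18613, chromosome 11, 106654218 to 106715281 on the minus strand of mm10), had the highest level per length of the 10, a mean of 18.99 CPM per kilobase of exon over the 6 libraries. Its level was 45.5 CPM in control skin, 76.2 with bleomycin alone, 81.7 with EHP-101, and 63.2, 63.3 and 46.6 in ajulemic acid libraries 1, 2 and 3. Control was the lowest library, ajulemic acid library 3 was almost at that level, and EHP-101 was the highest. The ajulemic acid libraries averaged 57.7 ± 9.61 CPM (SD, n = 3), a log2 fold change of -0.40 (SE 0.23) against bleomycin, and EHP-101 differed from bleomycin by 0.10 (SE 0.29).

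VE-cadherin, the adherens junction protein of endothelium (Cdh5, gene 12562, chromosome 8, 104101625 to 104144502 on the plus strand), was at 25.7 CPM in control skin, 30.99 with bleomycin alone, 31.7 with EHP-101, and 24.5, 22.9 and 18.4 in ajulemic acid libraries 1, 2 and 3. Bleomycin and EHP-101 were within 1 CPM of each other and above all other libraries. The ajulemic acid libraries, at 21.9 ± 3.16 CPM (SD, n = 3), did not overlap with bleomycin or EHP-101, and libraries 1 and 2 were close to control. Their log2 fold change against bleomycin was -0.50 (SE 0.22).

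Claudin-5, the tight junction protein that seals endothelium (Cldn5, gene 12741, chromosome 16, 18776847 to 18778262 on the plus strand), has 1 exon block in the table. It was at 10.1 CPM in control skin, 6.61 with bleomycin alone, 6.53 with EHP-101, and 4.98, 7.68 and 3.24 in ajulemic acid libraries 1, 2 and 3. Control was the highest library, and the ajulemic acid libraries lay on both sides of bleomycin and EHP-101. This gene had 65 to 154 counts per library, and its ajulemic acid libraries spread the most of the 10 genes, with a coefficient of variation of 42.2%. The log2 fold change with ajulemic acid was -0.32 (SE 0.51).

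**Figure D2:**
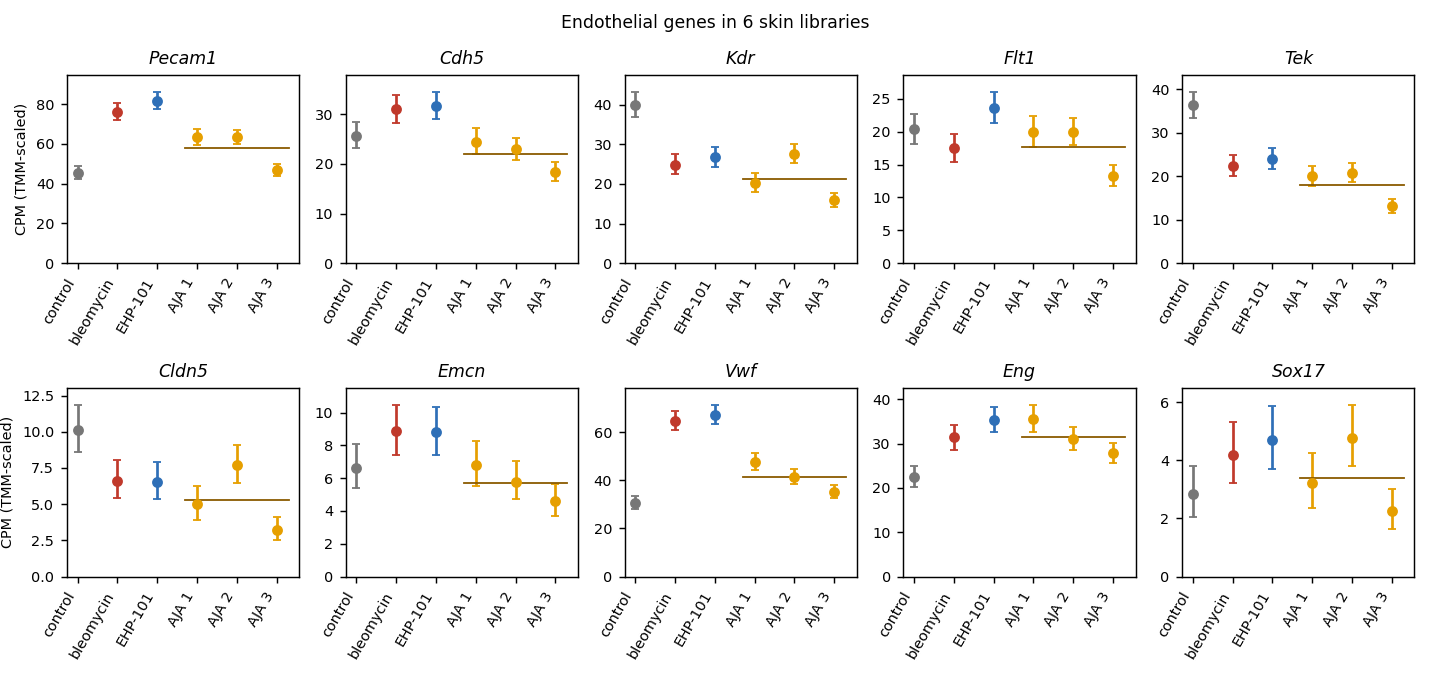
Levels of the 10 endothelial genes (vertical axes, TMM-scaled CPM from 0) in the 6 libraries (horizontal axes, AJA 1 to 3 being ajulemic acid); bars are 95% Poisson intervals for counting error only, and the line is the mean of the 3 ajulemic acid libraries. Control is the highest library for Kdr, Tek and Cldn5 and the lowest for Pecam1, Vwf and Eng, and ajulemic acid library 3 is the lowest of its group in every panel.

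Among the receptors, VEGFR2 (Kdr, gene 16542, chromosome 5, 75933265 to 75978428 on the minus strand), which carries most of the growth signal of VEGF-A, was at 39.9 CPM in control skin, 24.8 with bleomycin alone, 26.7 with EHP-101, and 20.3, 27.6 and 15.9 in ajulemic acid libraries 1, 2 and 3. Control stood above the other 5 libraries. Bleomycin and EHP-101 lay inside the range of the ajulemic acid libraries, so no order between these groups can be read from this gene. VEGFR1 (Flt1, gene 14254, chromosome 5, 147562196 to 147725988 on the minus strand), which binds VEGF-A tightly and limits its supply to VEGFR2, was at 20.4 CPM in control skin, 17.5 with bleomycin alone, 23.6 with EHP-101, and 19.9, 19.9 and 13.3 in ajulemic acid libraries 1, 2 and 3. EHP-101 was its highest library, bleomycin lay inside the ajulemic acid range, and the log2 fold change was 0.44 (SE 0.37) with EHP-101 and 0.02 (SE 0.30) with ajulemic acid. Both treatments were thus at or above bleomycin in the fit for Flt1, which turned negative with ajulemic acid under upper-quartile scaling and without library 1 or library 2.

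TIE2, the angiopoietin receptor (Tek, gene 21687, chromosome 4, 94739300 to 94874939 on the plus strand), was at 36.3 CPM in control skin, 22.5 with bleomycin alone, 23.98 with EHP-101, and 19.98, 20.8 and 13.1 in ajulemic acid libraries 1, 2 and 3. Control was the highest library by a wide margin and the other groups were in the order EHP-101, bleomycin, ajulemic acid, with no overlap between bleomycin and the ajulemic acid libraries. Library 2 was below bleomycin by less than counting error, at a ratio of 0.924 (95% counting interval 0.796 to 1.07), and so was library 1, at 0.890 (95% counting interval 0.759 to 1.04). Endoglin (Eng, gene 13805, chromosome 2, 32646595 to 32682669 on the plus strand), a co-receptor for ligands of the TGF-beta family, was at 22.5 CPM in control skin, 31.4 with bleomycin alone, 35.3 with EHP-101, and 35.5, 31.1 and 27.8 in ajulemic acid libraries 1, 2 and 3. It was the member that least set the treatments apart: the ajulemic acid libraries lay on both sides of bleomycin, library 1 was level with EHP-101, and the log2 fold change with ajulemic acid was 0.00 (SE 0.21), whose sign turned under 6 of 11 alternative settings. An exon of Eng overlaps the antisense gene Fpgs by 61 bases, and the strand setting of the counting is not given in the sources used here.

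The start regions of these 4 receptor genes are shown because receptors were on both sides of control in the bleomycin library, Kdr and Tek below it and Eng above it. Each line is the 250 bases before the RefSeq start of the gene (GRCm38.p6), read 5′ to 3′ on the gene's own strand, and capitals mark GGAA or its complement TTCC, the core letters bound by the ETS family of factors, several of which act in endothelium. The windows are chr5:75978456-75978705 for Kdr (minus strand), chr5:147726012-147726261 for Flt1 (minus strand), chr4:94739039-94739288 for Tek (plus strand) and chr2:32646345-32646594 for Eng (plus strand).
Kdr: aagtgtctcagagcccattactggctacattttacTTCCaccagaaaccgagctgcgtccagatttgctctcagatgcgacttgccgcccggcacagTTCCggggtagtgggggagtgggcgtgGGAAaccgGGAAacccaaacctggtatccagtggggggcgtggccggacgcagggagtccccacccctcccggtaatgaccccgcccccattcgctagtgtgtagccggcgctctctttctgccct
Flt1: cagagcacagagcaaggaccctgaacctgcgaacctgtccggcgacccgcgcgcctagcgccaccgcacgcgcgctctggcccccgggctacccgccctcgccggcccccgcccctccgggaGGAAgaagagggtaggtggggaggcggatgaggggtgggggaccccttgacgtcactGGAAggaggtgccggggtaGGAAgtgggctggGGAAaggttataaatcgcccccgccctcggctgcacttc
Tek: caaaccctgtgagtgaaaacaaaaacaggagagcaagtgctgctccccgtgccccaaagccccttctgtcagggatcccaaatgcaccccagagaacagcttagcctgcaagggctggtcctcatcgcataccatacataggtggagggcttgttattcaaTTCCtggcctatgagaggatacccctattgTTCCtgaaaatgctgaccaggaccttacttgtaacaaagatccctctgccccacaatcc
Eng: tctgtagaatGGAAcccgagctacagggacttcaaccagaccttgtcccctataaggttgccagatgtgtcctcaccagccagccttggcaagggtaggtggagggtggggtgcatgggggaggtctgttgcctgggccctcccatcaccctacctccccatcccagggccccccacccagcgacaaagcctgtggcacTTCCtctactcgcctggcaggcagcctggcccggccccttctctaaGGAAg
Kdr and Flt1 hold 4 such cores each, Tek 2 and Eng 3. RefSeq start regions were found for 6 of the 10 genes (also Cldn5 and Emcn), and GGAA on either strand was in 5 of them, Cldn5 having none. It was in 93.4% of all 32851 start regions of that length, so its presence does not set these genes apart. The GC box GGGCGG, searched on both strands, was in 3 of the 6 (Kdr, Flt1 and Cldn5) and in 32.7% of all regions. Matches are letters in a window and were not tested for binding.

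Of the surface and secreted products, von Willebrand factor (Vwf, gene 22371, chromosome 6, 125552963 to 125686677 on the plus strand), which endothelium stores and releases for clotting, had the largest fitted difference of the 10 between bleomycin and control. It was at 30.7 CPM in control skin, 64.7 with bleomycin alone, 67.3 with EHP-101, and 47.9, 41.6 and 35.3 in ajulemic acid libraries 1, 2 and 3. Control was the lowest library, bleomycin and EHP-101 were together at the top, and the ajulemic acid libraries lay between them without overlap. Ajulemic acid averaged 41.6 ± 6.30 CPM (SD, n = 3), a log2 fold change of -0.64 (SE 0.22) against bleomycin, while EHP-101 differed by 0.06 (SE 0.27). Endomucin (Emcn, gene 59308, chromosome 3, 137341078 to 137431069 on the plus strand), a sialomucin of capillary and venous endothelium, was at 6.64 CPM in control skin, 8.86 with bleomycin alone, 8.79 with EHP-101, and 6.82, 5.79 and 4.59 in ajulemic acid libraries 1, 2 and 3. Bleomycin and EHP-101 were again level with each other, and the ajulemic acid libraries, at 5.73 ± 1.12 CPM (SD, n = 3), lay below them with library 1 close to control. The log2 fold change with ajulemic acid was -0.63 (SE 0.31).

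The transcription factor Sox17 (gene 20671, chromosome 1, 4490928 to 4496413 on the minus strand), which takes part in arterial specification, was at 2.83 CPM in control skin, 4.17 with bleomycin alone, 4.70 with EHP-101, and 3.20, 4.76 and 2.24 in ajulemic acid libraries 1, 2 and 3. These are 43 to 83 counts per library, the fewest of the 10 genes, and the bleomycin interval from counting error alone ran from 3.22 to 5.32 CPM. Ajulemic acid libraries 1 and 3 were below bleomycin and library 2 above it, so the groups overlapped. Per length, Pecam1 was followed by Eng at 8.57, Cdh5 at 6.45 and Vwf at 5.43 CPM per kilobase. Tek, Kdr, Emcn and Cldn5, between 4.61 and 4.89, were not separable given their spread over libraries, and Flt1 (3.04) and Sox17 (1.17) were lowest.

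Bleomycin was compared with control to ask how skin exposed to the agent differs from skin that was not. Of the 10 genes, 6 had a positive log2 fold change (49.5% of all genes did): Vwf, Pecam1, Sox17, Eng, Emcn and Cdh5. The other 4, Tek, Kdr, Cldn5 and Flt1, had a negative one. Vwf was at 30.7 CPM in control skin against 64.7 CPM with bleomycin, which is 1.08 (SE 0.28) on the log2 scale, and Pecam1 at 45.5 CPM in control skin against 76.2 CPM with bleomycin, 0.74 (SE 0.29). On the other side Tek was at 36.3 CPM in control skin against 22.5 CPM with bleomycin, -0.69 (SE 0.39), Kdr at 39.9 CPM in control skin against 24.8 CPM with bleomycin, -0.69 (SE 0.42), and Cldn5 at 10.1 CPM in control skin against 6.61 CPM with bleomycin, -0.61 (SE 0.63). Counting error alone did not cover the gap between the 2 libraries for 8 genes, 5 above control (24.8% of all genes) and 3 below it (25.4%), the exceptions being Flt1 and Sox17. Gaps beyond counting error were thus common over all genes. The remaining log2 fold changes were 0.56 (SE 0.61) for Sox17, 0.48 (SE 0.26) for Eng, 0.42 (SE 0.39) for Emcn, 0.27 (SE 0.28) for Cdh5 and -0.22 (SE 0.37) for Flt1, and the median of the 10 was 0.34 beside -0.01 over all genes. The members thus lay on both sides of control, Vwf and Pecam1 farthest above and the receptors Kdr and Tek farthest below.

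By edgeR's quasi-likelihood test with Benjamini-Hochberg adjustment over all 17377 genes, 0 of the 10 passed in this comparison, as did 0% of all genes. The smallest adjusted p was 0.614, for Vwf (0.109 without ajulemic acid library 3 to 0.999 without library 1 over the alternatives), and for Pecam1 it was 0.740. At an unadjusted p under 0.05, Vwf was the 1 member higher (4.70% of all genes were) and 0 were lower (2.10%). DESeq2 called 165 genes and none of the 10. The test takes its spread from the 3 ajulemic acid libraries alone, with 2 residual degrees of freedom, so a miss does not show that these genes were equal in control and bleomycin.

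**Figure D3:**
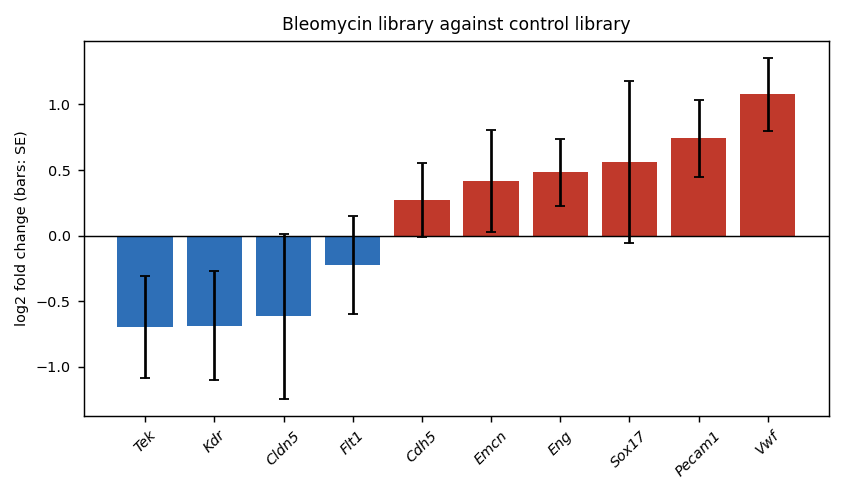
Log2 fold change of the bleomycin library over the control library for the 10 endothelial genes, ordered by size, with bars for the standard error from edgeR's fit. Tek, Kdr, Cldn5 and Flt1 are below 0 and the other 6 above it, and none passed the test after adjustment.

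Ratios between genes of 1 library do not depend on scaling, although they do not show on which side of control either gene lies. Counts per kilobase of Vwf over those of Kdr stood at 0.475 in control skin, 1.61 with bleomycin alone, 1.56 with EHP-101, and 1.46, 0.933 and 1.37 in ajulemic acid libraries 1, 2 and 3. The ratio was lowest in control, and the other 5 libraries were all above it, with ajulemic acid library 2 the nearest. For Pecam1 over Kdr the values were 1.88 in control skin, 5.06 with bleomycin alone, 5.05 with EHP-101, and 5.15, 3.79 and 4.84 in ajulemic acid libraries 1, 2 and 3. Vwf over Tek was 0.446 in control skin, 1.52 with bleomycin alone, 1.48 with EHP-101, and 1.26, 1.06 and 1.42 in ajulemic acid libraries 1, 2 and 3, with the same 2 libraries lowest. EHP-101 was within 3.41% of bleomycin in these 3 ratios. Control was also the lowest library for pairs of genes on the same side of control in the bleomycin library. Flt1 over Kdr was at 0.443 in control skin against 0.611 with bleomycin, and Pecam1 over Cdh5 at 2.14 against 2.96. These pairs were chosen after the values were seen, with 1 control library, and carry no test. In each pair the gene on top was the one with the larger log2 fold change of bleomycin against control. A ratio above control in the bleomycin library was therefore fixed in advance.

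**Figure D4:**
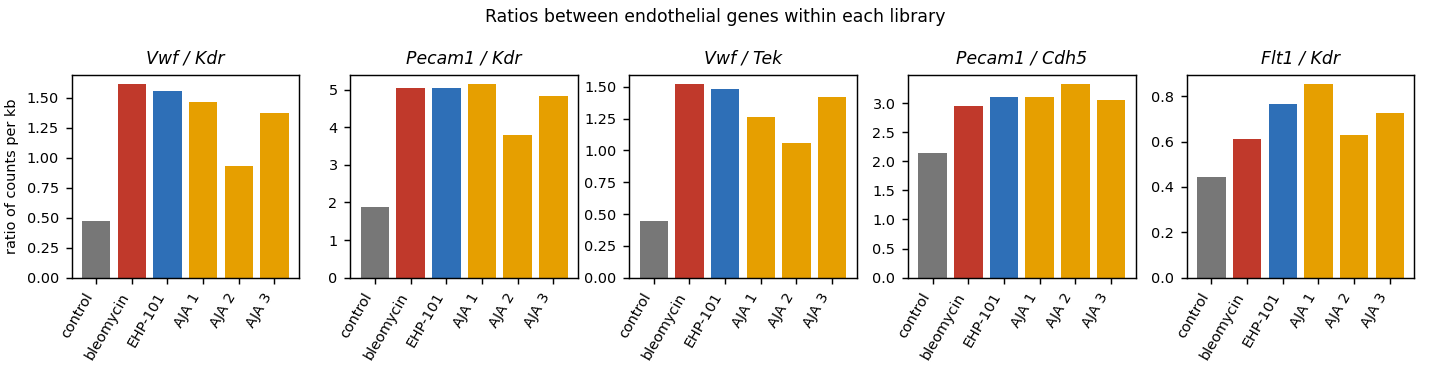
Ratios of counts per kilobase between pairs of endothelial genes within each of the 6 libraries (bars from 0, AJA 1 to 3 being ajulemic acid). Control is the lowest bar in each panel, and for Vwf over Kdr it is at 0.475 against 0.933 to 1.61 in the bleomycin-exposed libraries. The choice of the gene on top fixed that the bleomycin bar is above control.

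Against control, EHP-101 had 7 members above (50.1% of all genes), with a median log2 fold change of 0.35 beside 0.00 over all genes, the 3 below being Kdr, Tek and Cldn5. Ajulemic acid had 6 below (45.1% of all genes), Cdh5, Kdr, Flt1, Tek, Cldn5 and Emcn, with a median of -0.21 beside 0.04. Vwf was above control by 1.13 on the log2 scale with EHP-101 and 0.44 with ajulemic acid. Tek was at -0.60 and -1.02. Pecam1 was at 0.84 and 0.34, and Kdr at -0.58 and -0.91. Sox17 with ajulemic acid turned below control without library 2. These comparisons share the control library with each other and with bleomycin against control.

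Between the treatments, EHP-101 was above ajulemic acid in the fit for all 10 genes (45.5% of all genes), with a median of 0.44 beside -0.02. The values ran from 0.17 for Eng to 0.70 for Vwf. EHP-101 was above each of the 3 ajulemic acid libraries for 6 genes (18.3%): Pecam1, Cdh5, Flt1, Tek, Emcn and Vwf. In Kdr, Cldn5 and Sox17 library 2 was above EHP-101, and in Eng library 1 was. Without a test these are orders of libraries, and EHP-101 has 1.

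Other endothelial genes were read from a list of 24. With ajulemic acid 3 were above and 21 below bleomycin (47.2% of all genes were below), with a median of -0.24. With EHP-101 14 were above bleomycin (50.0% of all genes) and 10 below (median 0.10). These values come from the libraries whose levels were used to choose the members, and nothing is read from them. Plvap, the diaphragm protein of fenestrae and caveolae, ran between 23.5 CPM in control and 45.3 CPM in EHP-101, which places control lowest, as for Pecam1, Vwf and Eng. The sialomucin Cd34, which fibroblasts and follicle stem cells also carry, ran between 84.6 CPM in ajulemic acid library 3 and 189 CPM in control, with bleomycin at 100.6 CPM. Egfl7, a secreted factor of endothelium, ran between 22.2 CPM in ajulemic acid library 2 and 31.5 CPM in EHP-101. In bleomycin 16 of the 24 were above control (49.5% of all genes were) and 8 below (median 0.19). Of these, 2 were higher at an unadjusted p under 0.05 (4.70% of all genes) and 0 lower (2.10%), and 0 passed the adjusted test. Over all vascular lists, from pan-endothelial to pericyte, edgeR's adjusted test and DESeq2 both called 0 genes between bleomycin and control.

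Genes of capillary endothelium were read from a list of 7. In bleomycin 5 were lower than in control and 2 higher (49.5% of all genes were higher), with a median log2 fold change of -0.90. Gpihbp1, which anchors lipoprotein lipase to capillaries, was at 6.90 CPM in control skin against 1.80 CPM with bleomycin, with an adjusted p of 0.518 by edgeR. The fatty acid carrier Cd36 was at 484 CPM in control skin against 213 CPM with bleomycin. Rgcc, Cd300lg and Car4 were the others on that side, with log2 fold changes of -0.90, -0.81 and -1.52, and they and Gpihbp1 are named after their values were seen. Above control were the water channel Aqp1, at 75.4 CPM in control skin against 148 CPM with bleomycin, and the matrix protein Sparcl1, at 88.2 CPM in control skin against 128 CPM with bleomycin. At an unadjusted p under 0.05 by edgeR, 3 were lower (2.10% of all genes) and 1 was higher (4.70%). With EHP-101 5 were above (50.0% of all genes were) and 2 below bleomycin (median 0.20). With ajulemic acid 1 was above and 6 below (47.2% of all genes were below), with a median of -0.41.

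Fat is a tissue with a dense capillary bed, and adipocytes make Cd36 themselves. All 9 adipocyte markers were lower in bleomycin than in control (median -1.10), while 49.5% of all genes were higher. The fatty acid binding protein Fabp4 was at 848, 214, 449, 289.9, 346 and 289 CPM in control, bleomycin, EHP-101 and ajulemic acid libraries 1 to 3. The lipid droplet protein Plin4 was at 305, 206, 368, 288, 206 and 189.5 CPM in the same order. The sum of the 9 markers was 2259 CPM in control skin, 912 with bleomycin alone, 1620.4 with EHP-101, and 1176, 1169 and 869 in ajulemic acid libraries 1, 2 and 3, highest in control and lowest in ajulemic acid library 3. DESeq2 called Fabp4 and Lep, 2 of the 9, in bleomycin against control, where it called 165 of all 17377 genes. edgeR called 0 of the 9 and 0 of all genes. By edgeR 5 were lower at an unadjusted p under 0.05 (2.10% of all genes). The part of fat content in the values of the capillary list and of Kdr, Tek and Cldn5 was not tested.

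Of 5 venous genes 3 were higher in bleomycin than in control (49.5% of all genes were), with a median of 0.61. The venous transcription factor Nr2f2 was at 8.61 CPM in control skin against 18.2 CPM with bleomycin. P-selectin (Selp), stored in the same granules as von Willebrand factor, was at 4.20 CPM in control skin against 14.9 CPM with bleomycin and reached 25.4 CPM with EHP-101. The chemokine-binding receptor Ackr1 was at 7.10 CPM in control skin against 10.8 CPM with bleomycin, and the ephrin receptor Ephb4, at 62.7 CPM in control skin against 61.9 CPM with bleomycin, was nearly level. At an unadjusted p under 0.05 by edgeR, Nr2f2 and Selp were higher (4.70% of all genes were). Among 12 arterial and Notch genes 11 were lower and 1 higher (median -0.20), while 49.5% of all genes were higher. Of the 11 lower genes 1, Cxcl12, was so at an unadjusted p under 0.05 by edgeR (2.10% of all genes). The leading genes of that list by level per length are also made by epidermis and follicle. Notch1 ran between 282 CPM in ajulemic acid library 2 and 601 CPM in ajulemic acid library 3. Jag1 ran between 145 CPM in ajulemic acid library 2 and 307 CPM in ajulemic acid library 3. These were also the libraries with the lowest and highest hair follicle sums. Efnb2 ran between 96.3 CPM in bleomycin and 146 CPM in ajulemic acid library 2. What part follicle and epidermis have in these values was not tested.

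Among 6 measured lymphatic genes, 5 were higher in bleomycin than in control (49.5% of all genes were), with a median of 0.76. Of these, 2, Pdpn and Reln, were so at an unadjusted p under 0.05 by edgeR (4.70% of all genes). Podoplanin (Pdpn), which fibroblasts and basal keratinocytes also make, ran between 17.1 CPM in control and 29.6 CPM in ajulemic acid library 2, and reelin (Reln) between 18.1 CPM in control and 55.6 CPM in bleomycin. The hyaluronan receptor Lyve1, shared with macrophages, was the gene on the other side, at 10.4 CPM in control skin against 4.88 CPM with bleomycin. Pericytes, the mural cells of small vessels, had 6 of 9 genes higher in bleomycin than in control (49.5% of all genes were), with a median of 0.23. Notch3 ran between 136 CPM in control and 201 CPM in EHP-101, the proteoglycan Cspg4 between 88.2 CPM in ajulemic acid library 2 and 155 CPM in ajulemic acid library 3 and Ndufa4l2 between 15.8 CPM in ajulemic acid library 3 and 30.6 CPM in ajulemic acid library 1. With ajulemic acid 4 were above and 5 below bleomycin (47.2% of all genes were below). Of 10 genes of sprouting endothelium bleomycin lay above control for 6 (49.5% of all genes), with a median of 0.11. Mcam ran between 45.9 CPM in control and 73.7 CPM in EHP-101. The pericyte-recruiting factor Pdgfb ran between 16.2 CPM in control and 23.2 CPM in bleomycin. The chemokine receptor Cxcr4 ran between 7.51 CPM in ajulemic acid library 2 and 14.5 CPM in ajulemic acid library 3.

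**Figure D5:**
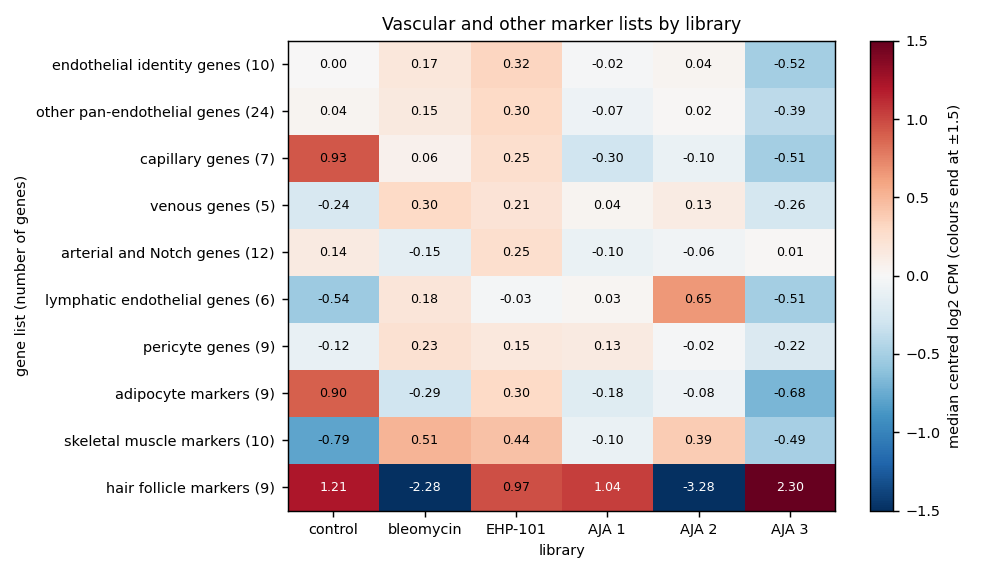
Median centred log2 CPM of gene lists (rows, with the number of genes) in the 6 libraries (columns, AJA 1 to 3 being ajulemic acid); each gene was centred on its mean over the libraries, and colours end at 1.5 on either side of 0. The endothelial identity genes are at 0.32 in EHP-101 and -0.52 in ajulemic acid library 3, the capillary list is highest in control, and of the 10 lists drawn the hair follicle list varies most.

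Of the 9 ligands tested for the receptors among the members, 6 were higher in bleomycin than in control (49.5% of all genes were) and 3 lower (median 0.18). By edgeR 0 of them reached even an unadjusted p under 0.05. VEGF-A (Vegfa), the main ligand of Kdr and Flt1, was at 63.4 CPM in control skin, 50.9 with bleomycin alone, 46.99 with EHP-101, and 45.3, 42.02 and 37.7 in ajulemic acid libraries 1, 2 and 3. It was highest in control, as Kdr was, and lowest in ajulemic acid library 3. Of the Flt1 ligands Vegfb ran between 5.64 CPM in ajulemic acid library 3 and 10.9 CPM in ajulemic acid library 2 and Pgf between 0.920 CPM in control and 1.95 CPM in EHP-101. Vegfc ran between 2.39 CPM in ajulemic acid library 3 and 5.79 CPM in ajulemic acid library 2 and Vegfd between 7.08 CPM in ajulemic acid library 3 and 12.5 CPM in ajulemic acid library 2, both being ligands of the lymphatic receptor Flt4. Angpt1, which activates Tek, was at 12.3 CPM in control skin, 9.88 with bleomycin alone, 9.58 with EHP-101, and 6.95, 9.34 and 4.74 in ajulemic acid libraries 1, 2 and 3, and so had its extremes in the same libraries as Tek. Angpt2, which can oppose it, stayed between 8.43 CPM in ajulemic acid library 2 and 10.9 CPM in EHP-101. Of the TGF-beta ligands, Tgfb1 ran between 11.2 CPM in control and 16.5 CPM in ajulemic acid library 2 and Tgfb3 between 13.4 CPM in ajulemic acid library 3 and 26.5 CPM in bleomycin. Gdf2 (BMP9) and Bmp10, the ligands that bind endoglin most directly, had at most 4 counts in any library and were not tested.

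Receptor partners and targets numbered 11, of which 4 were higher (49.5% of all genes were) and 7 lower with bleomycin (median -0.14). At an unadjusted p under 0.05 by edgeR, 1 of the 7 was lower (2.10% of all genes were). TIE1 (Tie1), the partner of TIE2, ran between 13.3 CPM in control and 17.9 CPM in EHP-101, unlike Tek, whose highest library was control. The phosphatase Ptprb, which dampens TIE2, was at 74.6 CPM in control skin, 80.6 with bleomycin alone, 87.5 with EHP-101, and 65.05, 55.7 and 49.03 in ajulemic acid libraries 1, 2 and 3. The libraries stood in the same order for Ptprb as for Cdh5. The VEGF co-receptors Nrp1 and Nrp2 ran between 59.5 CPM in ajulemic acid library 3 and 84.6 CPM in control and between 77.3 CPM in bleomycin and 166 CPM in ajulemic acid library 3, and Flt4 between 6.31 CPM in control and 17.4 CPM in ajulemic acid library 2. Nrp2 was lowest in bleomycin, where hair follicle markers were low but not lowest, and highest in ajulemic acid library 3, where they were highest. For endoglin's receptor complex, Acvrl1 (ALK1) ran between 16.8 CPM in ajulemic acid library 3 and 25.3 CPM in bleomycin, Bmpr2 between 143 CPM in ajulemic acid library 2 and 155 CPM in EHP-101 and Tgfbr2 between 119 CPM in ajulemic acid library 3 and 197 CPM in ajulemic acid library 2. Among BMP target genes Id3, a partner that blocks other transcription factors, was at 51.6 CPM in control skin against 21.8 CPM with bleomycin, which is -1.24 (SE 0.34) on the log2 scale. It was the gene at an unadjusted p under 0.05, with an adjusted p of 0.626 by edgeR. Id1 ran between 27.5 CPM in bleomycin and 39.8 CPM in ajulemic acid library 3 and Smad6 between 4.43 CPM in bleomycin and 25.1 CPM in ajulemic acid library 3. The top of Smad6 was again the library with the highest sum of hair follicle markers. What part follicle RNA has in Nrp2 and Smad6 was not tested.

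Junction partners are shared with epidermis, and 10 genes were split evenly, 5 above (49.5% of all genes) and 5 below control in the bleomycin library (median 0.01). Beta-catenin (Ctnnb1), which binds VE-cadherin, ran between 479 CPM in ajulemic acid library 2 and 855 CPM in ajulemic acid library 3, plakoglobin (Jup) between 520.2 CPM in control and 777 CPM in ajulemic acid library 1 and p120-catenin (Ctnnd1) between 382 CPM in ajulemic acid library 2 and 501 CPM in ajulemic acid library 3. None of these had the low level in ajulemic acid library 3 that Cdh5 had. Another gene of the list, Jam2, named here for its values, did, at 20.3 CPM there against 33.8 CPM with bleomycin. In the fit EHP-101 was above ajulemic acid for 3 of the 10 (45.5% of all genes), Jam2, Jam3 and Esam, and below it for 7.

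Other cells make some of the member transcripts, and their markers were read beside them. Platelets and megakaryocytes make Vwf and Pecam1. Of 6 measured platelet genes 1 was higher (49.5% of all genes were) and 5 lower in bleomycin than in control (median -0.69). The summed list ran from 15.5 to 25.8 CPM. Pf4 was between 4.52 CPM in EHP-101 and 14.3 CPM in ajulemic acid library 2 and Itga2b between 3.91 CPM in bleomycin and 6.75 CPM in ajulemic acid library 1. Leukocytes carry Pecam1, and macrophages Eng. Of 9 leukocyte and macrophage markers 6 were higher in bleomycin than in control (49.5% of all genes were), with a median of 0.42. All 9 were lower in EHP-101 than in bleomycin (median -0.39), while 50.0% of all genes were higher. Lyz2 ran between 249 CPM in control and 329 CPM in bleomycin and Csf1r between 79.4 CPM in ajulemic acid library 3 and 136 CPM in bleomycin, and the sum of the list was 557 CPM in control skin, 738 with bleomycin alone, 529 with EHP-101, and 678, 772 and 559 in ajulemic acid libraries 1, 2 and 3. The part of these cells in the member values was not tested. As a sign of blood content, the 3 measured erythrocyte markers were all lower in bleomycin than in control, while 49.5% of all genes were higher. Alas2 ran between 8.38 CPM in ajulemic acid library 3 and 26.4 CPM in control. Slc4a1 ran between 0.459 CPM in ajulemic acid library 2 and 11.7 CPM in ajulemic acid library 3. DESeq2 called Hba-a2, 1 of the 3, in bleomycin against control, where it called 165 of all 17377 genes.

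Liver tissue has endothelium of its own. Of 6 markers of liver sinusoidal endothelium, 4 were higher (49.5% of all genes were) and 2 lower with bleomycin relative to control (median 0.92). At an unadjusted p under 0.05 by edgeR there were 0 of them, and DESeq2 called 0. With EHP-101 1 was above (50.0% of all genes were) and 5 below bleomycin. With ajulemic acid 1 was likewise above and 5 below (47.2% of all genes were below). Stab2 ran between 0.698 CPM in ajulemic acid library 3 and 2.69 CPM in control, Clec4g between 0.0682 CPM in ajulemic acid library 1 and 0.854 CPM in control, Oit3 between 0.136 CPM in ajulemic acid library 1 and 1.03 CPM in bleomycin and Gpr182 between 1.60 CPM in ajulemic acid library 3 and 3.34 CPM in bleomycin. Fcgr2b and Dnase1l3, which leukocytes also make, ran between 24.9 CPM in control and 67.5 CPM in ajulemic acid library 2 and between 27.5 CPM in control and 56.6 CPM in ajulemic acid library 1. The hepatocyte sum was low in all 3 ajulemic acid libraries, whereas the 10 endothelial genes together summed to 246, 245 and 180.5 CPM there, against 241 CPM for control skin, 288 for bleomycin alone and 310.4 for EHP-101. With the hepatocyte, hair and muscle lists taken out of the counts before scaling, the median log2 fold change of the members with ajulemic acid was -0.32, as before. That step does not remove RNA of other cells that came with those tissues, whose part in the member values was not tested.

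The genes whose levels over the 6 libraries were most like the average of the 10 were found by the root mean square difference between centred log2 CPM values, among 10743 other genes whose mean log2 CPM was 3 or more. The closest was the receptor phosphatase Ptprm, at a difference of 0.0583 and levels of 29.6, 30.2, 31.5, 24.4, 28.1 and 18.2 CPM in control, bleomycin, EHP-101 and ajulemic acid libraries 1 to 3. It was followed by Lrrc61 (0.0666), sarcospan (Sspn, 0.0694), caveolin-1 (Cav1, 0.0708), the junctional adhesion molecule Jam2 (0.0755) and Art3 (0.0815). The median over all genes compared was 0.323. The 10 genes themselves differed from their own average by 0.0950 for Cdh5, the nearest to it, to 0.351 for Cldn5. With 6 libraries, 3 of them of 1 group, likeness is a description only.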

How the data were processed

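The authors deposited raw counts per gene, made with featureCounts per the series' design text. The submitters' processing notes name mm10 and the tools featureCounts (1.6.1), HISAT2 (2.1.0), Trimmomatic (0.36) and DESeq2 (1.20.0). Per the labels' protocols, libraries were stranded total RNA depleted of ribosomal RNA, from 300 ng, read as single ends of 50 bp. A merged table held the same counts (0 values differed), and its 6 other sample columns, 2 each named for control, bleomycin and EHP-101, come from another series per the design text, match no sample here and were not used. The deposited exon lengths gave levels per kilobase. RefSeq symbols (GRCm38.p6) matched 25275 of 27179 gene numbers.

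edgeR 4.0.16 (R 4.3.3) was run on the counts of all 6 libraries in 1 fit, with filterByExpr (minimum count 10, 17377 genes tested, all 10 members among them), TMM scaling, and two-sided quasi-likelihood F-tests with robust moderation. A gene was called at a Benjamini-Hochberg adjusted p under 0.05. Only the ajulemic acid group gave residual degrees of freedom (2), so single libraries were assumed to vary like it. The common biological coefficient of variation was 0.267. SE is the fold change over the root of F. Poisson and ratio intervals are exact and 95%. Log2 CPM used a prior count of 3. Alternatives were DESeq2 1.42.0, other scalings and filters and leaving out each ajulemic acid library, and the scripts were tested on simulated data. The members and lists were chosen with earlier results of these data known. The text names the 10 members, the ligands and receptor partners, 3 genes of each vascular list by level per length, 2 of most other lists by level, and the 6 genes most like the members; exceptions are stated. The ajulemic acid libraries differed by at least 37.3 in chi-square per degree of freedom, so none was counted as a duplicate.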

Additional observations from a re-analysis of the deposited data

How the results depend on the processing

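No paired analysis was possible because replicate number 3 is the only one the groups share, which leaves no repeated pairs to test. In bleomycin against control each member kept its sign under all 11 alternatives and none passed a test. Genes called over the whole table went from 0 to 165 with DESeq2 in bleomycin against control, from 0 to 10 in EHP-101 against bleomycin, from 0 to 103 in ajulemic acid against bleomycin, from 0 to 64 in EHP-101 against ajulemic acid, from 0 to 120 in EHP-101 against control and from 6 to 276 in ajulemic acid against control. With no filter on low counts they were 41, 16 and 153 in ajulemic acid against bleomycin, EHP-101 against ajulemic acid and ajulemic acid against control; in the last, total counts gave 35 and leaving out the hepatocyte, hair follicle and muscle genes 0. Leaving out each ajulemic acid library gave 0 to 177, 0 to 0, 0 to 92, 0 to 67, 0 to 91 and 0 to 367 genes in the 6 comparisons in the order above, most without library 3, and 4 to 8 members on opposite sides of bleomycin, most without library 2. The cause was not tested. The share of all genes on opposite sides is not given for these settings, which ask for fewer ajulemic acid libraries below bleomycin. The member median of EHP-101 against bleomycin was 0.18 with total counts, a scaling that moved the median of all genes in EHP-101 against control to 0.13. Depth limits Sox17, Cldn5 and Emcn most, with 43 to 154 counts per library.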
